A study of Mus musculus with 6 samples.

Results

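The 10 genes described here encode the core of the machinery that copies and transcribes mitochondrial DNA (mtDNA): Polg, Polg2, Twnk, Ssbp1, Mgme1, Polrmt, Tfam, Tfb2m, Tefm and Tfb1m. Each was found by its symbol among the 51499 assembled loci of the count table, and none of the 10 shared a locus with another gene. Transcripts were measured by RNA sequencing of poly(A)-selected RNA from mouse embryonic fibroblasts (MEFs) immortalized with SV40, with 3 independent cultures of each of 2 genotypes and no further treatment. The WT cells carry the intact floxed Yme1l alleles (Yme1l fl/fl), and the Yme1l-/- cells carry the alleles deleted by Cre recombinase. Per the study's methods, both lines were grown up as clones after Cre was delivered, so genotype and clone cannot be told apart, and the spread between cultures does not cover the spread between clones. YME1L is a protease that sits in the inner membrane of mitochondria and uses ATP.

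mtDNA is a small circular genome packed by the DNA-bending protein TFAM into nucleoids. It is transcribed by the single-subunit RNA polymerase POLRMT, which needs TFAM and TFB2M to start at the promoters and TEFM to elongate. It is replicated by DNA polymerase gamma (the catalytic subunit POLG with its accessory subunit POLG2), which follows the helicase Twinkle (Twnk), while the single-stranded DNA-binding protein SSBP1 coats the opened strand and the nuclease MGME1 trims the ends. The genes of all these proteins lie in the nucleus, and many of their promoters are known targets of the transcription factors NRF1 and GABP.

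The 6 libraries held 33180867 to 49351107 fragments, with the highest totals in Yme1l-/- cultures 2 and 3. The WT columns of the count table are named WT2 and were matched to the WT samples by that name and the culture number. Whether the name marks a further WT line is not stated. Yme1l1, the gene of YME1L, fell from 189 ± 5.16 to 39.1 ± 1.34 CPM (counts scaled to 1000000 fragments of the TMM-scaled library, mean ± SD, n = 3), which left 20.7% of the WT level. Which exons are floxed is not given in the sources used here. Of 11 fibroblast marker loci, 8 reached 10 CPM in both genotypes, whereas Thy1, Lum and Dcn did not. All 15 marker loci found for other cell types stayed under 5 CPM in both. A further planned marker, Tubb3, was not found by its symbol. The summed level of the fibroblast markers was 10963 to 11520 CPM in the WT libraries and 6724 to 7207 CPM in the Yme1l-/- libraries. Col1a1 went the other way, from 1616 to 2177 CPM. The sum of the other markers was 4.75 to 5.35 CPM in WT and 8.12 to 9.26 CPM in Yme1l-/- libraries, with the macrophage marker Adgre1 at 0 in all libraries. Cd68, also of macrophages, was at 1.77 and 3.62 CPM, the muscle marker Des at 0.436 and 2.65 CPM and the epithelial marker Epcam at 1.29 and 0.0848 CPM in WT and Yme1l-/- cells. Their part in the results was not tested. In bulk RNA, fewer cells of a type and less RNA per cell cannot be told apart.

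The promoter sequences are shown because they carry the letters by which NRF1 and GABP are known to bind. In the window from 250 bases before to 50 bases after each RefSeq transcription start (build GRCm38.p6, 11 windows for the 10 genes), the ETS motif CCGGAAGT bound by GABP was found on either strand in 4 genes, against 3.89% of 32851 mouse promoters. The NRF1 consensus motif, searched the same way, was found in Polrmt alone among the 10, against 4.60% of promoters, and the TATA box letters TATAAA also in Polrmt alone, against 13.6%. The following 30-base stretches read 5′ to 3′ along the strand of each gene, with the ETS motif (or its reverse complement in Twnk) in capitals for the first 4 and both overlapping NRF1 matches in capitals for Polrmt:
Polg (chr7:79466293-79466322, minus strand): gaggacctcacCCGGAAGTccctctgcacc
Tfam (chr10:71238073-71238102, minus strand): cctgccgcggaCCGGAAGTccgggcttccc
Tefm (chr11:80142144-80142173, minus strand): agcacacgaaaCCGGAAGTtgaggaggaac
Twnk (chr19:45006436-45006465, plus strand): actaaccggtgACTTCCGGttccggggttg
Polrmt (chr10:79746565-79746594, minus strand): gcaggcgGCGCGTGCGCGTGCGCactgcgg

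The ETS motif ended 2 bases before the RefSeq start in Tefm, 31 bases before it in Polg, 40 in Tfam and 104 in Twnk. The NRF1 matches of Polrmt spanned the start itself. The GRCm38 annotation used for the gene positions below starts the 4 genes with the ETS motif earlier, so their ETS stretches lie inside those ranges. A match describes these letters only. Of the 4 genes with the ETS letters, Tefm and Tfam were higher in Yme1l-/- cells, Polg was lower and Twnk was not called. These calls are those before any chromosome or neighbour median was removed. A link between the letters and the changes was not tested.

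Of the 10 genes, 6 were higher in Yme1l-/- MEFs (Polrmt, Tefm, Mgme1, Tfb1m, Tfam and Ssbp1), 1 was lower (Polg) and 3 did not pass the test (Polg2, Twnk and Tfb2m). A call here is an adjusted p under 0.05 in the quasi-likelihood test of edgeR, adjusted after Benjamini-Hochberg over the 13867 loci that were tested. In these cells 67.7% of all tested loci were called, 33.6% higher and 34.1% lower. The median log2 fold change (Yme1l-/- over WT) was 0.37 over the 10 genes and -0.0041 over all tested loci.

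**Figure D1:**
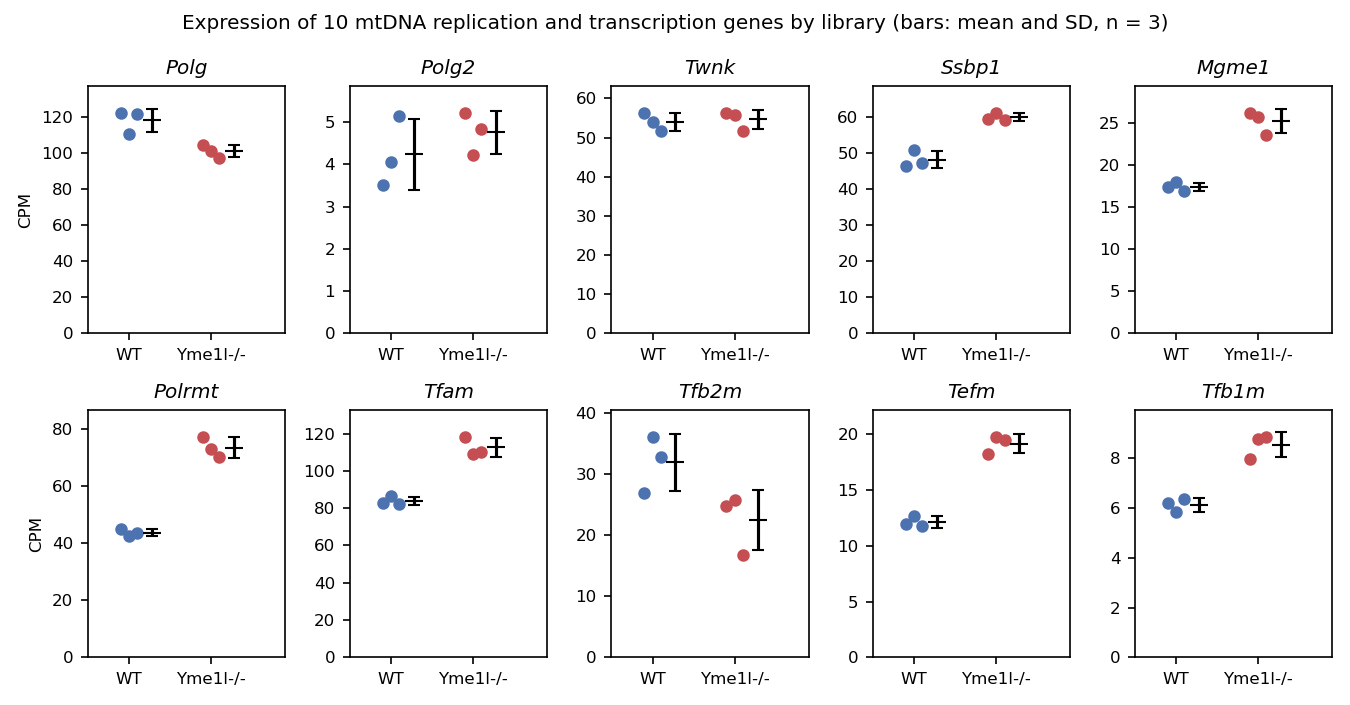
Expression of the 10 genes in CPM (vertical axis, from 0) in each of 3 WT (blue) and 3 Yme1l-/- (red) libraries, with mean and SD in black. The Yme1l-/- libraries sit above all WT libraries in 6 panels and below them for Polg and Tfb2m, and the genotypes overlap for Polg2 and Twnk.

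The replication genes were divided. Polg, the catalytic subunit of DNA polymerase gamma, was at 123, 111 and 122 CPM in the WT libraries and at 104, 101 and 97.6 CPM in the Yme1l-/- libraries. All Yme1l-/- values lay below all WT values, and the fold change was small, -0.23 ± 0.05 on the log2 scale (SE; edgeR adjusted p = 0.00237). Polg2, the accessory subunit that holds the polymerase on DNA, had the fewest fragments of the 10 genes, with 116, 133 and 168 fragments in WT and 183, 213 and 246 in Yme1l-/- libraries, that is 3.50, 4.06 and 5.15 against 5.23, 4.22 and 4.83 CPM. The genotypes overlapped, and the difference of 0.16 ± 0.15 was not called (edgeR adjusted p = 0.366). Single cultures moved it, to 0.04 without WT culture 1, 0.10 without Yme1l-/- culture 1 and 0.33 without WT culture 3.

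Twnk, the replicative helicase, stood at 56.3, 53.9 and 51.6 CPM in WT and 56.4, 55.7 and 51.8 CPM in Yme1l-/- libraries. These values covered nearly the same range in both genotypes, with a log2 fold change of 0.02 ± 0.05 (edgeR adjusted p = 0.786). Ssbp1, whose protein coats single-stranded mtDNA at the fork, was at 46.6, 51.0 and 47.3 CPM in WT and rose to 59.6, 61.3 and 59.2 CPM in Yme1l-/- libraries. The Yme1l-/- values were all higher, by 0.32 ± 0.05 on the log2 scale (edgeR adjusted p = 0.000173). Mgme1, the exonuclease that processes the ends of nascent mtDNA strands, was at 17.4, 18.0 and 17.0 CPM in WT and at 26.3, 25.8 and 23.7 CPM in Yme1l-/- libraries. It showed the largest rise among these 5 replication genes, 0.53 ± 0.06 (edgeR adjusted p = 2.24e-05).

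Of the 4 transcription genes, 3 rose. Polrmt, the mitochondrial RNA polymerase, had the largest fold change of the 10 genes. Its values were 44.9, 42.4 and 43.7 CPM in WT and 77.4, 72.8 and 70.0 CPM in Yme1l-/- libraries. The genotypes were far apart, with a 1.68-fold higher level in Yme1l-/- cells (log2 fold change 0.75 ± 0.05, edgeR adjusted p = 2.26e-07). Tefm, the elongation factor of this polymerase, followed with 12.0, 12.7 and 11.8 CPM in WT and 18.2, 19.8 and 19.5 CPM in Yme1l-/- libraries. It was 1.58-fold higher (0.66 ± 0.07, edgeR adjusted p = 7.65e-06). Tfam, which both packages mtDNA and starts its transcription, was at 82.7, 86.6 and 82.3 CPM in WT and 118, 109 and 110 CPM in Yme1l-/- libraries. All Yme1l-/- libraries were higher, by 1.34-fold (0.42 ± 0.05, edgeR adjusted p = 1.45e-05).

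Tfb2m, the factor that opens the promoter for POLRMT, was the transcription gene that did not pass the test. Its values were 26.8, 36.1 and 32.7 CPM in WT and 24.7, 25.7 and 16.8 CPM in Yme1l-/- libraries. Every Yme1l-/- library was below every WT library, yet the cultures of both genotypes were spread widely. The log2 fold change of -0.51 ± 0.19 was not called (edgeR adjusted p = 0.0558). The call depended on single cultures and on the tool: the adjusted p was 0.0398 without WT culture 1, 0.0366 without Yme1l-/- culture 2, 0.0247 without Yme1l-/- culture 3 and 0.0382 in DESeq2, within a range of 0.0247 to 0.160 over all alternatives. The fold change itself was -0.33 without Yme1l-/- culture 3. The gene Cnst, which starts 103 bases away on the other strand, had a log2 fold change of -0.01 ± 0.06.

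Tfb1m encodes a relative of TFB2M that methylates the small mitochondrial ribosomal RNA. It had 205, 191 and 208 fragments in WT and 279, 443 and 452 in Yme1l-/- libraries, that is 6.19, 5.83 and 6.37 against 7.97, 8.79 and 8.87 CPM. All Yme1l-/- libraries were higher, by 0.48 ± 0.10 on the log2 scale (edgeR adjusted p = 0.000953), while its relative Tfb2m had the lowest fold change of the 10 genes. Across the set, the libraries of the genotypes did not overlap for 8 genes, 6 with Yme1l-/- above and 2 below, and the same held for 71.9% of all tested loci (35.9% above and 36.0% below).

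The median log2 fold change differed between whole chromosomes, so each gene was set against the other tested loci of its own chromosome. Over all chromosomes the medians ran from -0.44 on chromosome 12 to 0.59 on chromosome 15. For those that hold the 10 genes they ran from -0.15 on chromosome 1, which holds Tfb2m, to 0.36 on chromosome 11, which holds Tefm and Polg2. After the median of the chromosome was removed, 5 of the 10 genes were higher in Yme1l-/- cells (Mgme1, Polrmt, Tfb1m, Tefm and Tfam), 1 was lower (Polg) and 4 were not called. By the same measure 63.0% of the 13802 loci with a chromosome were called, 31.3% higher and 31.7% lower. The median of the 10 genes shrank from 0.37 to 0.05, with 5 genes above and 5 below their chromosome.

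**Figure D2:**
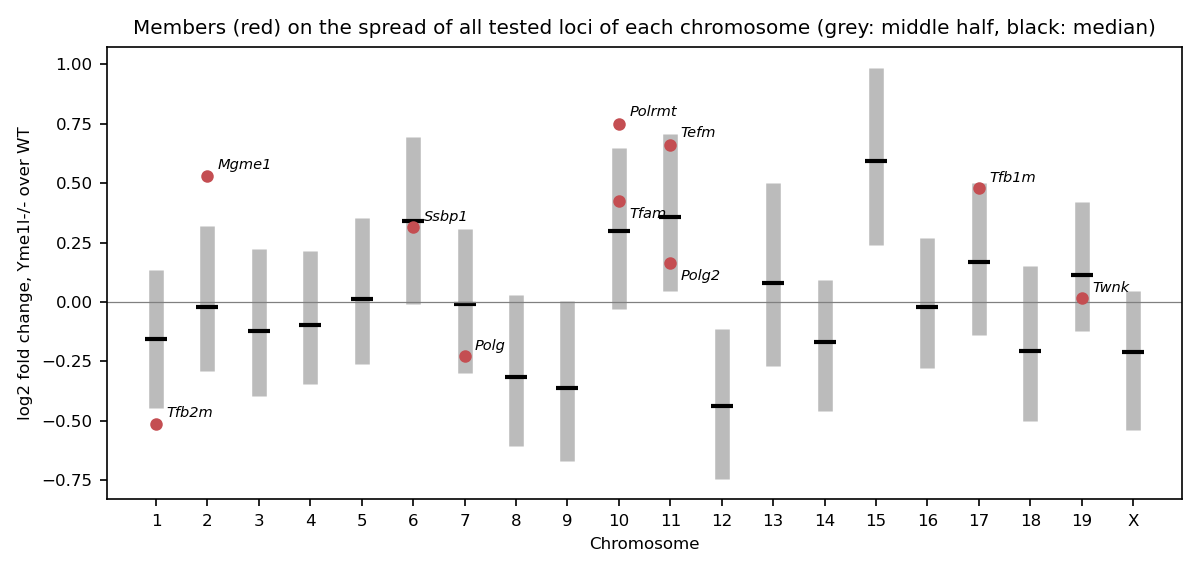
Log2 fold change, Yme1l-/- over WT, of the 10 genes (red points) on the distribution of tested loci of each chromosome (horizontal axis; grey bar from the lower to the upper quartile, black line at the median). Mgme1, Polrmt and Tfb2m lie outside the grey bar of their chromosome, and Ssbp1 lies on the median of chromosome 6.

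Ssbp1 was the gene whose call ended. Chromosome 6 had a median of 0.34, and Ssbp1 stood -0.03 ± 0.05 from it, higher than 48.9% of the other 696 tested loci there (edgeR adjusted p = 0.678; -0.06 to -0.01 without single cultures). Tfam and Polrmt share chromosome 10, whose median was 0.30. Polrmt stayed 0.45 ± 0.05 above that median (edgeR adjusted p = 1.63e-05) and exceeded 79.2% of the other 697 loci. Tfam stayed 0.13 ± 0.05 above it (edgeR adjusted p = 0.0400) and exceeded 60.3% of them.

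Chromosome 2 had a median of -0.02, and Mgme1 stood 0.55 ± 0.07 above the chromosome (edgeR adjusted p = 2.29e-05) and exceeded 84.0% of 1083 loci, the highest such share of the 10 genes. On chromosome 11, Tefm stood 0.30 ± 0.07 above the median (edgeR adjusted p = 0.00304), whereas Polg2 stood -0.19 ± 0.15 from it and was not called (edgeR adjusted p = 0.302). The value for Polg2 was -0.33 without WT culture 1, -0.11 without Yme1l-/- culture 2 and -0.03 without WT culture 3. Tfb1m stood 0.31 ± 0.10 above the median of chromosome 17 of 0.17 (edgeR adjusted p = 0.0140). Polg stood -0.22 ± 0.05 from the median of chromosome 7, close to its uncorrected change (edgeR adjusted p = 0.00312).

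The helicase and the initiation factor were not called by this measure. Twnk stood -0.10 ± 0.05 from the median of chromosome 19 (edgeR adjusted p = 0.133), and Tfb2m stood -0.36 ± 0.19 from that of chromosome 1 (edgeR adjusted p = 0.153). Without Yme1l-/- culture 3 the value for Tfb2m was -0.19, and without Yme1l-/- culture 2 it was -0.49. The value for Twnk was -0.06 without Yme1l-/- culture 3 and -0.13 without WT culture 3. Tfb2m exceeded 21.3% of the other tested loci of its chromosome, the lowest such share among the 10.

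A closer reference, the median of the 25 tested loci on each side of the gene, gave 3 genes higher (Polrmt, Mgme1 and Tefm), 2 lower (Polg and Twnk) and 5 not called. Of all loci, 62.1% were called by it (30.3% higher and 31.8% lower). Polrmt stood 0.34 ± 0.05 above its neighbours (edgeR adjusted p = 0.000156), Mgme1 0.28 ± 0.07 (edgeR adjusted p = 0.00331) and Tefm 0.18 ± 0.07 (edgeR adjusted p = 0.0416). Polg and Twnk stood -0.37 ± 0.05 and -0.23 ± 0.05 from theirs (edgeR adjusted p = 8.13e-05 and 0.00261). The loci around these genes had positive medians of 0.14 and 0.25.

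The calls of Tfam and Tfb1m did not hold against this reference. Tfam stood 0.10 ± 0.05 above its neighbours (edgeR adjusted p = 0.0859). Its difference from the chromosome was 0.08 without Yme1l-/- culture 1, and its call against the chromosome was lost without WT culture 1 (adjusted p = 0.158), WT culture 3 (0.143), Yme1l-/- culture 1 (0.132) or Yme1l-/- culture 3 (0.0702), in DESeq2 (0.0556) and with no filter on low counts (0.0520). Tfb1m stood 0.14 ± 0.10 above its neighbours (edgeR adjusted p = 0.216), and its call against the chromosome was lost without Yme1l-/- culture 2 (adjusted p = 0.0534) or 3 (0.0556) and with no filter (0.0527). Over all alternatives the adjusted p against these references ran from 0.0223 to 0.158 for Tfam and from 0.00783 to 0.216 for Tfb1m.

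**Figure D3:**
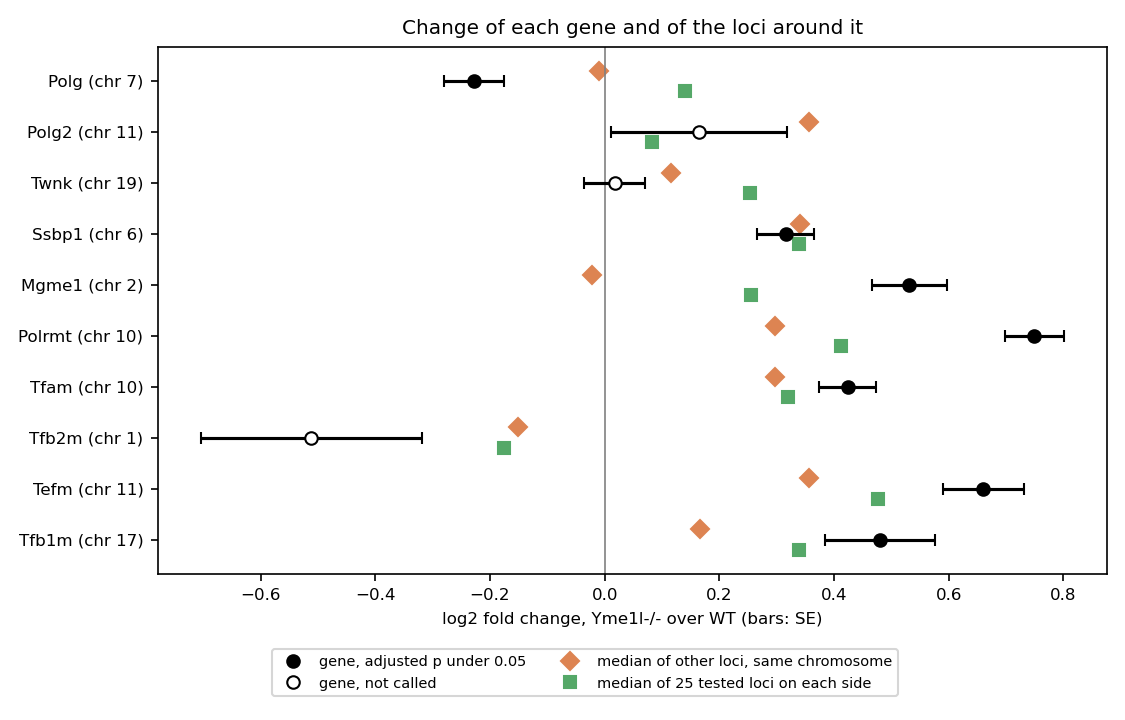
Log2 fold change, Yme1l-/- over WT, of each gene with its SE (filled circle where called, open where not), beside the median of the other tested loci of its chromosome (orange diamond) and of the 25 tested loci on each side (green square). Polrmt, Tefm, Mgme1, Tfam and Tfb1m lie to the right of both medians and Polg, Twnk and Tfb2m to the left of both, whereas Ssbp1 lies close to both.

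Levels of different genes were compared per length of transcript, as the authors' combined FPKM (fragments scaled to transcript length and library size) of each genotype, with the range that the CPM of the 3 libraries gives around it. In WT cells the order ran from Ssbp1 at 57.0 and Tfam at 48.4 through Polg (34.6), Tfb2m (18.0), Twnk (15.7), Polrmt (15.0), Tefm (11.5), Mgme1 (7.35) and Tfb1m (5.20) to Polg2 at 2.75 FPKM. The ranges of Tfb2m and Twnk overlapped, as did those of Twnk and Polrmt, and the other neighbours in this order were apart. The catalytic subunit Polg was thus listed at a higher level than its accessory subunit Polg2 in both genotypes. On this scale the ranges of Polg overlapped between the genotypes (32.4 to 35.8 FPKM in WT and 31.7 to 33.9 FPKM in Yme1l-/- cells), which was not tested.

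In Yme1l-/- cells the ends of the order were the same, with Ssbp1 at 69.1, Tfam at 61.3, Polg at 32.9 and, last, Polg2 at 2.92 FPKM. The middle was rearranged. Polrmt came next at 24.8, followed by Tefm at 18.1, Twnk at 15.95, Tfb2m at 12.3, Mgme1 at 10.8 and Tfb1m at 7.25 FPKM, and only the ranges of Tfb2m and Mgme1 overlapped. Tfb2m stood above Tefm in WT cells and below it in Yme1l-/- cells. Its range overlapped that of Polrmt in WT cells and lay below it in Yme1l-/- cells.

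The genomic position may bear on what was counted for 5 of the genes, whose exons overlap those of a gene on the opposite strand in the GRCm38 annotation. Polg (chromosome 7, 79446231 to 79466362, minus strand) shares 921 exonic bases with Fanci, which rose by 0.38 ± 0.05 on the log2 scale. Twnk (chromosome 19, 45005663 to 45012762, plus strand) shares 507 with Mrpl43, which rose by 0.26 ± 0.05. The authors' range for Twnk starts later, at 45006558, so some of these shared bases may lie outside it. Polg was lower and Twnk was not called, and whether fragments of these partners moved their values was not tested. Mgme1 (chromosome 2, 144270663 to 144281227, plus strand) shares 206 bases with Snx5, at 193 ± 3.35 CPM in WT and 193 ± 0.629 CPM in Yme1l-/- cells. Polg2 (chromosome 11, 106768253 to 106779537, minus strand) shares 132 with Milr1, which had at most 4 fragments in any library. Tfb1m (chromosome 17, 3519256 to 3557781, minus strand) shares 142 with Tiam2, which was lower by a small amount (-0.16 ± 0.05, at 85.1 ± 2.83 and 76.4 ± 3.76 CPM, for the larger of 2 loci of that symbol). Whether the counting used the strand is not stated, so fragments of these shared bases may belong to either gene. The authors' table lists the ranges of Tfb1m (231141 bases), Polg (74434), Mgme1 (31105) and Polg2 (28312) identically for the gene and for its opposite-strand partner, while each of these genes has count rows of its own.

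The other 5 genes share no exonic bases with another gene. They are Tfam (chromosome 10, 71225464 to 71238280), Polrmt (chromosome 10, 79736123 to 79746581), Tefm (chromosome 11, 80136678 to 80142175) and Tfb2m (chromosome 1, 179528055 to 179546267) on the minus strand, and Ssbp1 (chromosome 6, 40471352 to 40484700) on the plus strand. Among 9077 loci of at least 10 mean CPM, Arf2 and Pex19 lay nearest to Tfam in centred log2 CPM over the 6 libraries, at Euclidean distances of 0.0433 and 0.0464. Neither lies on chromosome 10 with Tfam.

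Of 15 loci for other steps of mtDNA replication, topology and repair, 8 were higher in Yme1l-/- cells, 4 were lower and 3 were not called, with a median log2 fold change of 0.16. For this and the following lists, the shares over all tested loci were 33.6% higher and 34.1% lower. The largest rises were in Nthl1, a DNA glycosylase for oxidized pyrimidines, from 7.89 ± 0.572 to 15.5 ± 1.63 CPM (0.97 ± 0.10), Top1mt, the mitochondrial type I topoisomerase, from 15.0 ± 0.633 to 26.7 ± 1.13 CPM (0.83 ± 0.06), and Ogg1, which removes oxidized guanine, from 24.7 ± 1.49 to 39.1 ± 4.01 CPM (0.66 ± 0.08). Rnaseh1, which removes RNA primers, fell from 21.2 ± 1.05 to 13.8 ± 1.17 CPM (-0.62 ± 0.08). Primpol (-0.24 ± 0.07) and the merged locus of Gm29609, Gtf3c2 and Mpv17 (-0.24 ± 0.04), whose counts cannot be divided among its genes, were also lower. Against the chromosome medians 4 were higher, Nthl1, Top1mt and Ogg1 among them, and 2 were lower. Of the lower genes, the Mpv17 locus stayed lower (-0.26 ± 0.04), whereas Dna2, named after its values were seen, turned from higher (0.15 ± 0.06, edgeR adjusted p = 0.0370) to lower (-0.14 ± 0.06, edgeR adjusted p = 0.04997). Rnaseh1 (-0.19 ± 0.08) and Primpol (0.08 ± 0.07) were no longer called.

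Of 18 loci of the MTERF family and of mitochondrial RNA processing, 4 were higher, 9 were lower and 5 were not called, with a median of -0.19. Pnpt1, the mitochondrial polynucleotide phosphorylase, rose by 0.69 ± 0.05, Mterf2 by 0.67 ± 0.12 and Elac2, which cuts the 3′ ends of mitochondrial tRNAs, by 0.53 ± 0.05. The lowest among the called loci were 1110008L16Rik, the locus of the RNase P subunit PRORP, at -0.48 ± 0.08, the oligoribonuclease Rexo2 at -0.47 ± 0.06 and the RNA granule protein Grsf1 at -0.32 ± 0.04. Against the chromosome medians the list held 4 higher and 3 lower and its median was 0.03. Of the 9 lower genes, 6 were no longer called, among them 1110008L16Rik (-0.05 ± 0.08) and Rexo2 (-0.11 ± 0.06), whereas Grsf1 stayed lower (-0.34 ± 0.04, edgeR adjusted p = 3.64e-05).

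Of 9 loci of nucleoid proteins and TFAM turnover, 5 were higher, 3 lower and 1 not called (median 0.29). Shmt2, the mitochondrial serine hydroxymethyltransferase found at nucleoids, rose from 361 ± 14.2 to 794 ± 23.2 CPM (1.14 ± 0.05). Lonp1, the matrix protease that degrades TFAM, rose with Tfam, from 161 ± 3.30 to 230 ± 4.60 CPM (0.51 ± 0.04), and stood 0.34 ± 0.04 above its chromosome. Of the ClpXP protease, the peptidase Clpp was higher (0.43 ± 0.07) and its partner Clpx lower (-0.24 ± 0.06). The merged locus of Dnaja3 and Vasn (-0.58 ± 0.04) and Atad3a (-0.27 ± 0.05) were lower. Against the chromosome medians 4 were higher and 2 lower. Clpp (0.27 ± 0.07) was still higher, but Clpx turned to 0.12 ± 0.06 and was not called (edgeR adjusted p = 0.0759). The prohibitins Phb (-0.07 ± 0.09) and Phb2 (0.03 ± 0.06), higher before, lost their calls, and the chaperone Hspa9 (0.24 ± 0.04) gained one. These 3 genes were named after their values were seen.

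**Figure D4:**
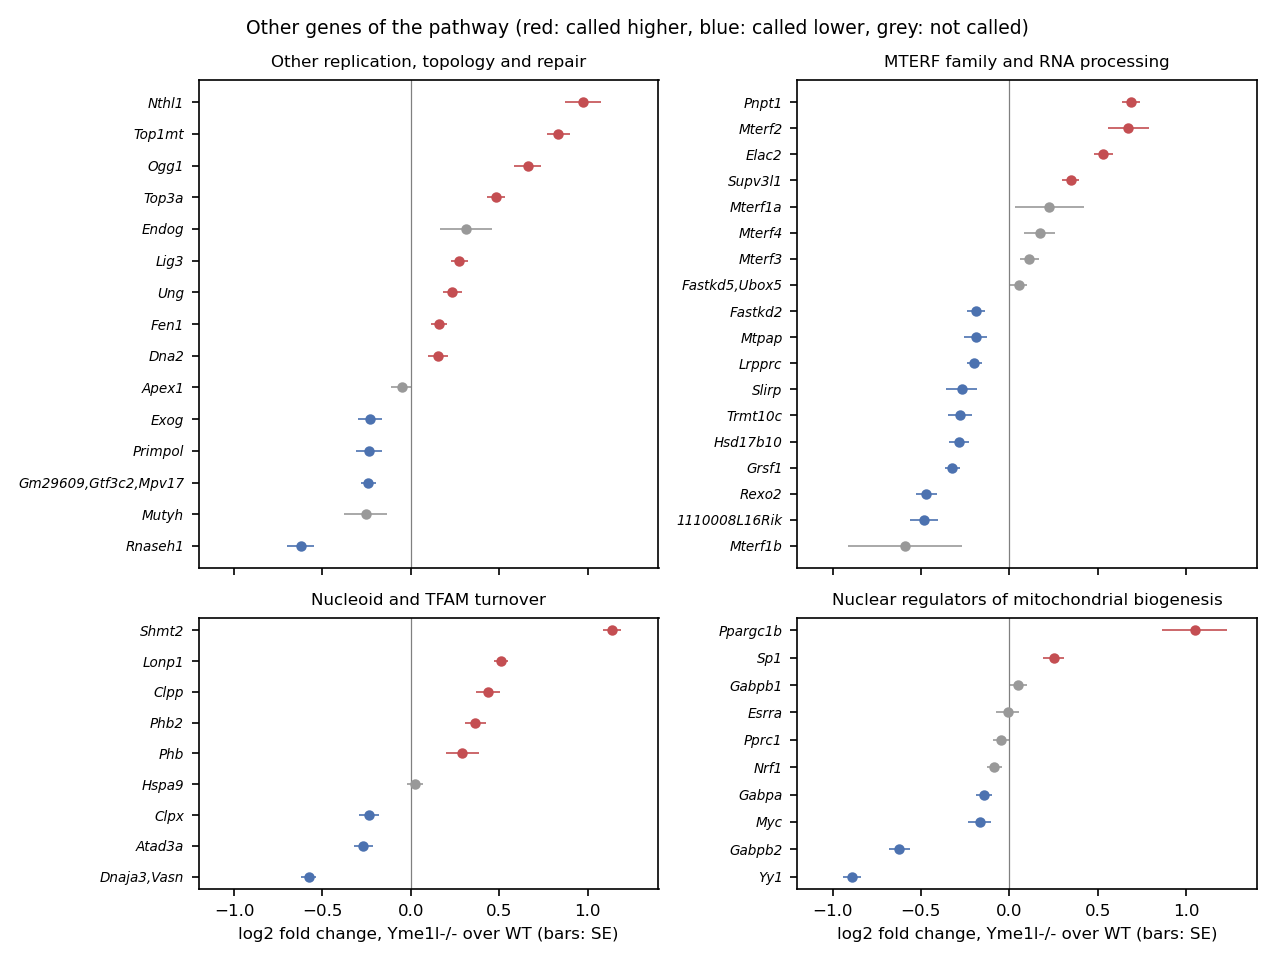
Log2 fold change, Yme1l-/- over WT, with SE for the tested loci of 4 lists of nuclear genes, ordered within each list (red called higher, blue called lower, grey not called). Esrrg, with no fragment in the Yme1l-/- libraries, is not drawn. Each list holds calls in both directions.

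Of 13 loci of nuclear regulators of mitochondrial biogenesis, 11 were tested, of which 2 were higher, 5 lower and 4 not called (median -0.08, also with Esrrg at its bound). Nrf1, whose motif lies in the Polrmt promoter, was at 77.5 ± 0.233 CPM in WT and 73.1 ± 1.96 CPM in Yme1l-/- cells (-0.08 ± 0.04, edgeR adjusted p = 0.106). Against chromosome 6, whose median was 0.34, it was called lower (-0.43 ± 0.04, edgeR adjusted p = 5.98e-06). Gabpa, the DNA-binding subunit of GABP, fell by a small amount (-0.14 ± 0.05, edgeR adjusted p = 0.0171), a call that ended with upper-quartile scaling (adjusted p = 0.125) and without WT culture 2 (0.0544), within a range of 0.00828 to 0.125. Of its partner subunits, Gabpb2 was lower (-0.62 ± 0.06) and Gabpb1, named after its values were seen, was not called (0.05 ± 0.05, edgeR adjusted p = 0.439).

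Among the coactivators, Ppargc1b rose from 0.863 ± 0.0471 to 1.78 ± 0.110 CPM (1.05 ± 0.19), a low level in both genotypes, and Pprc1 was at 271 ± 10.9 and 262 ± 5.86 CPM and was not called (edgeR adjusted p = 0.364). Against its chromosome Pprc1 was called lower (-0.16 ± 0.04, edgeR adjusted p = 0.00836). Ppargc1a was too low to test, at 0.213 ± 0.0814 and 0.242 ± 0.115 CPM. The nuclear receptor Esrra stood at 18.4 ± 0.791 and 18.3 ± 0.763 CPM and was not called (edgeR adjusted p = 0.903), whereas its relative Esrrg had 2.39 ± 0.596 CPM in WT and no fragment in any Yme1l-/- library, at least 27.9-fold lower against 3 fragments per library. Yy1 was lower (-0.89 ± 0.05) and Sp1 higher (0.25 ± 0.06). Against the chromosome medians 1 of the 11 was higher and 8 were lower (median -0.34), and Sp1 turned from higher to lower (-0.34 ± 0.06). It lies on chromosome 15, whose median was 0.59.

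Over these 4 lists of nuclear genes, 53 loci were tested. Of these, 19 were higher and 21 lower, and the median was -0.0099, where 33.6% of all tested loci were higher and 34.1% lower. Against the chromosome medians 13 were higher and 15 lower, where 31.3% of all loci were higher and 31.7% lower.

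The transcripts that this machinery makes, the protein-coding RNAs of mtDNA, were counted in 10 loci. Of these, 2 were lower, 1 was higher and 7 were not called. The median of -0.23 rested on WT culture 2, without which it was 0.38. mt-Nd5 was at 2404, 2215 and 1978 CPM in WT and 1503, 1530 and 1501 CPM in Yme1l-/- libraries. It was thus lower in every Yme1l-/- library (-0.54 ± 0.07, edgeR adjusted p = 2.63e-05). mt-Nd2 was likewise lower throughout, at 2239, 2312 and 2082 against 1635, 1788 and 1620 CPM (-0.40 ± 0.06, edgeR adjusted p = 0.000118).

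mt-Co1 was called higher (0.29 ± 0.11, edgeR adjusted p = 0.0371), although its libraries overlapped, at 5536, 7145 and 5388 CPM in WT and 7689, 7652 and 6801 CPM in Yme1l-/- cells. The call was lost without WT culture 1 (adjusted p = 0.119), WT culture 3 (0.102), Yme1l-/- culture 1 (0.176) or Yme1l-/- culture 2 (0.0996) and with no filter on low counts (0.184), within a range of 0.000346 to 0.184 over all edgeR and DESeq2 alternatives. mt-Nd1 (3688 ± 93.8 and 3531 ± 226 CPM) and mt-Cytb (4014 ± 89.9 and 4128 ± 243 CPM) were not called. mt-Nd6 was at 17.6, 40.2 and 38.5 CPM in WT and 47.8, 63.5 and 64.0 CPM in Yme1l-/- libraries. Its groups did not overlap, but the difference of 0.87 ± 0.37 was not called (edgeR adjusted p = 0.101).

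The remaining mtDNA loci varied widely between cultures of one genotype and were not called. mt-Nd3 ranged from 0.214 to 394 CPM, mt-Co2 from 7.47 to 3666 CPM and the merged locus of mt-Atp6, mt-Atp8 and mt-Co3 from 6.06 to 6961 CPM over the 3 WT libraries, highest in WT culture 2 and lowest in WT culture 3 each time. The locus of mt-Nd4 and mt-Nd4l ranged from 1236 to 2734 CPM. The Yme1l-/- libraries lay within these WT ranges. Without WT culture 2 the log2 fold changes turned from -1.63 to 2.79 for mt-Nd3, from -1.40 to 2.92 for mt-Co2 and from -1.27 to 3.14 for the locus of mt-Atp6, mt-Atp8 and mt-Co3.

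**Figure D5:**
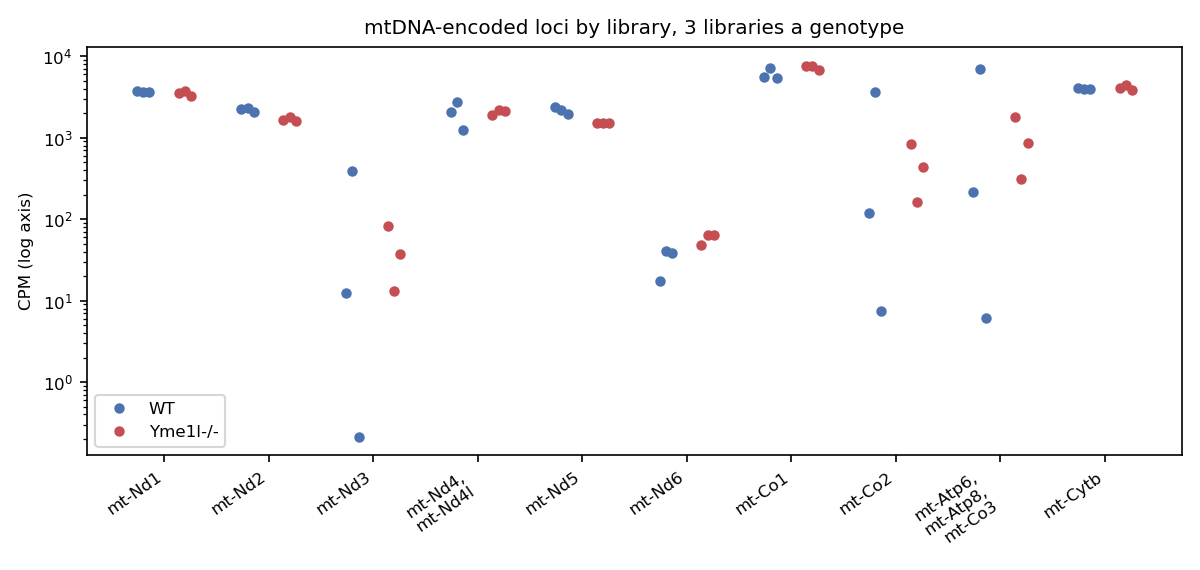
CPM (log axis) of the 10 mtDNA-encoded loci in the 3 WT (blue) and 3 Yme1l-/- (red) libraries. mt-Nd2 and mt-Nd5 are lower in every Yme1l-/- library, whereas mt-Nd3, mt-Co2 and the merged locus of mt-Atp6, mt-Atp8 and mt-Co3 spread widely among the WT libraries.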

How the data were processed

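Poly(A)-selected, strand-marking, paired-end libraries of 3 WT and 3 Yme1l-/- cultures were sequenced. Per the labels and the study's methods, the authors mapped reads to GRCm38 with HISAT2 2.0.4, assembled transcripts with StringTie 1.3.3 and compared genotypes with Cuffdiff 2.2.1. The authors deposited raw fragment counts (whole numbers, not normalized) for 51499 loci, 635 of which merge several genes. How the counting treated strand and fragments that map to several places is not stated. The authors also deposited a table with combined FPKM values per genotype, used for levels between genes. Its log2 ratio, p-value and q-value columns hold the authors' own comparison and were not used.

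The members and lists were chosen with earlier results of these data known. The fits used R 4.3.3 and edgeR 4.0.16 (TMM scaling, filterByExpr with a minimum count of 10, quasi-likelihood test with robust estimation, two-sided, no covariate), with limma 3.58.1. The SE is the log2 fold change divided by the square root of the F statistic. For chromosome and neighbour medians the same fit was run with the median, the gene left out, as an offset of the Yme1l-/- libraries. Benjamini-Hochberg adjustment ran over all loci tested. The fits were tested on simulated counts. The lower bound for Esrrg was computed against 3 counts in the Yme1l-/- library where these weigh most. It covers counting error only, since PCR copies were not identified.

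All 10 genes are named. Of each other list, the 3 highest and 3 lowest fold changes among calls are named, plus Nrf1, Gabpa, Ppargc1a, Ppargc1b, Pprc1, Esrra and Lonp1. Further mtDNA loci, the gene partners on the opposite strand and Cnst were named after their values were seen. Likeness to Tfam was measured as Euclidean distance, and 1 locus of that ranking is not reported here. Promoters were read from RefSeq. Alternatives were RLE and upper-quartile scaling, DESeq2 1.42.0, other filters, a replicate block, leaving out each culture, the neighbour median, chromosome medians over loci of at least 10 CPM, and lists without merged loci. No 2 libraries were alike within sampling noise (chi-square per degree of freedom at least 8.71). P-values measure the spread between cultures.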

Additional observations from a re-analysis of the deposited data

How the results depend on the processing

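Against WT, the 6 genes called higher stayed called, and Polg stayed lower, under RLE and upper-quartile scaling, DESeq2, both other filters, the replicate block and every left-out culture. The count of genes called lower was 2 instead of 1 in DESeq2 and ran from 1 to 2 when single cultures were left out, since Tfb2m was then called. The uncalled fold change of Twnk ran from -0.015 to 0.057 when cultures were left out, below 0 without WT culture 3 and without Yme1l-/- culture 1 (-0.0039). Against the chromosome, 3 genes in place of 5 were higher with the 25 neighbours on each side and with no filter beyond a total of 1 count, and 3 to 5 when cultures were left out (3 without Yme1l-/- culture 3), and 4 in DESeq2. With the neighbours 2 were lower, and Polg2 turned to 0.082. Chromosome medians over loci of at least 10 CPM gave 5 higher and 1 lower, and the 4 lists without merged loci gave 19 higher and 19 lower. Upper-quartile scaling moved the median of all loci to 0.055, the share of calls that were higher from 49.6% to 55.1%, Esrra to 0.050 and Pprc1 to 0.012. Without single cultures Esrra ran from -0.047 to 0.016. Calls over all loci ran from 8513 to 10051. The causes of these shifts were not tested.

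Deviations from the group means correlated between same-numbered cultures at 0.24, -0.23 and 0.05, so the numbers were not taken to pair the samples. A replicate block gave 9794 calls in place of 9387, the 10 genes had the same 6 higher and 1 lower, and against the chromosome 2 were lower in place of 1, with Twnk at -0.10 (edgeR adjusted p = 0.0438). Culture 1 of each genotype correlated best with its own number, and cultures 2 and 3 did not.

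Polg2 had the fewest fragments of the 10 genes, 116 to 246 per library. The differences of Tfb2m (SE 0.19) and Polg2 (SE 0.15) carry the largest errors of the 10 genes, and the part of depth in them was not tested.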
